A study of Mus musculus with 12 samples.

Results

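The cytochrome P450 (Cyp) and UDP-glucuronosyltransferase (Ugt) genes of the mouse were described in the inferior vena cava (IVC) by RNA-seq. All protein-coding genes of the counts table whose symbol is Cyp or Ugt followed by a digit were taken as members, 123 genes of 55414 in all and of 21627 protein-coding genes. They comprised 101 Cyp and 22 Ugt genes, and another 34 genes with such symbols that are not annotated as protein-coding were left out. The libraries came from 10-week-old wild-type C57BL/6J mice on day 7 after surgery, 1 library per mouse. In 6 mice, 3 male and 3 female, an infrarenal aortocaval fistula (AVF) had been made by needle puncture of the aorta into the IVC. In the 6 sham mice, also 3 male and 3 female, the vessels were exposed and clamped in the same way without the puncture. The study divided its AVF mice, from the expression in these same libraries, into 4 normal AVF (nAVF, male #04 and #06 and female #07 and #11) and 2 outliers (OUT, male #05 and female #09). The sample labels do not hold that division, so values in OUT are given as a description and OUT was not tested against any group. The sample is a whole vein segment, in which fewer cells of a type and less RNA per cell cannot be told apart.

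P450 enzymes are heme proteins that insert oxygen into their substrates with electrons passed on by reductases, and Ugt enzymes couple glucuronic acid, supplied as UDP-glucuronate, to the products so that they can be excreted. The Cyp1, Cyp2 and Cyp3 families and the Ugt1 and Ugt2 families are best known for the clearance of drugs and other foreign compounds by the liver, where many of them are among the abundant transcripts. Other members have narrow roles outside the liver, in the synthesis of sterols and steroid hormones, in the metabolism of vitamin D and retinoic acid, and in the conversion of fatty acids to signaling lipids in the vessel wall and in leukocytes.

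The libraries held 15177881 to 22717423 counts. The members took 0.0695% to 0.225% of the counts in 9 libraries, 0.306% in #05, 0.325% in #04 and 0.587% in #09. A gene was taken as detected with 3 counts, which came to 0.125 to 0.309 normalized CPM (counts scaled to a common library size with TMM factors) depending on the library. Ribosomal RNA genes took 46.0% of the counts in #07 and 2.39% to 12.6% in the other 11 libraries. The defining transcripts of the vein wall were present in every library, with a summed level of 4 smooth muscle markers of 2196 to 4841 CPM and of 4 endothelial markers of 1451 to 2511 CPM. The hepatocyte markers set the OUT libraries apart. Alb, which encodes albumin, was at 1859 CPM in #05 and 5654 CPM in #09 and at 0.125 to 2.73 CPM in the other 10 libraries. Trf, another of these markers, stood apart less, at 889 CPM in #05, 2339 CPM in #09 and 255 to 698 CPM in the other 10. The part of liver RNA in the results below was not tested.

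Members fell into classes by where they were detected. In all 6 sham libraries 33 members reached 3 counts (29 Cyp and 4 Ugt), and these are called sham-expressed. In both OUT libraries and in none of the other 10, 30 members did so (23 Cyp and 7 Ugt). Both OUT libraries and some but not all of the others held 17 members (12 Cyp and 5 Ugt). In 1 OUT library alone 15 members were detected (13 Cyp and 2 Ugt), 6 members were detected in scattered libraries, and 22 did not reach 3 counts in any library. Each library held 37 to 42 detected members outside OUT, but 84 in #05 and 91 in #09. The sham-expressed members took 99.6% to 99.9% of the members' counts in each of the 10 sham and nAVF libraries, 75.1% in #05 and 55.9% in #09.

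**Figure D1:**
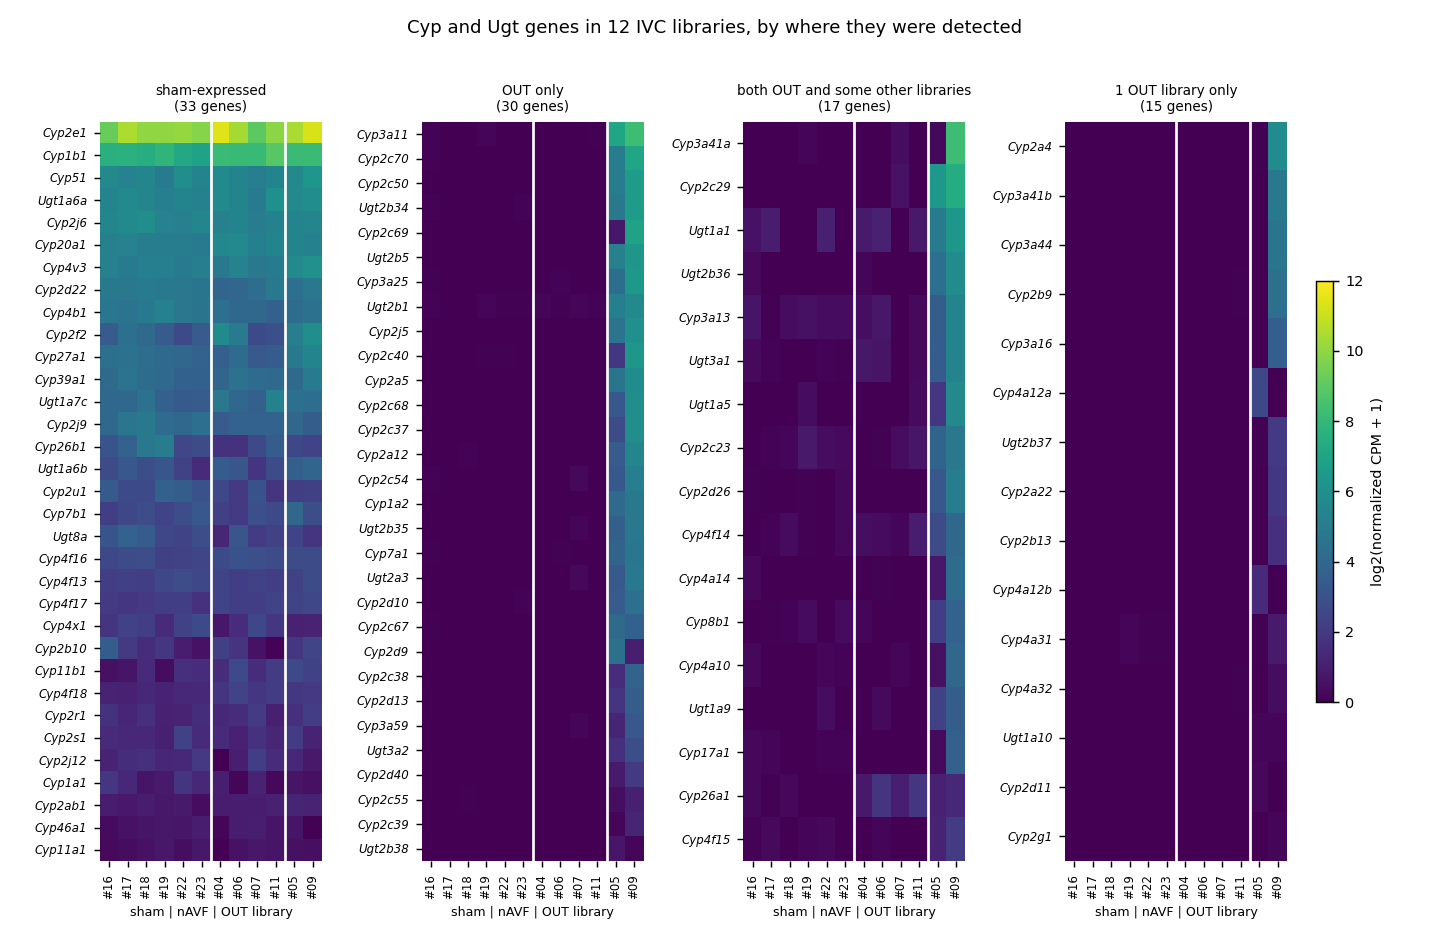
Level of the 95 Cyp and Ugt genes of 4 detection classes (rows) in the 6 sham, 4 nAVF and 2 OUT libraries (columns), as log2(normalized CPM + 1) in color. The 33 sham-expressed genes are detected in all 6 sham columns, but not all of them in every AVF column. The 30 genes of the second panel are detected in the OUT columns #05 and #09 alone, and some of them have counts under the detection limit elsewhere.

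Sham-expressed members were led by Cyp2e1, which oxidizes ethanol and other small molecules. Its level per length in sham was 358 ± 99.7 CPM per kb of exon (SD, n = 6), and the next member, Cyp1b1, which oxidizes estrogens and polycyclic hydrocarbons, stood at 24.8 ± 5.62 CPM per kb. The ranges of these 2 members over the sham libraries overlapped neither each other nor that of the third member. Cyp20a1, a P450 without an assigned substrate, had 13.3 ± 1.32 CPM per kb. It was followed by Cyp2j6, which acts on arachidonic acid, with 11.3 ± 2.10 CPM per kb, and by Cyp4v3, a fatty acid hydroxylase, with 8.73 ± 0.603 CPM per kb. Ugt1a6a, which conjugates small phenols, reached 7.46 ± 0.966 CPM per kb, and Cyp51, the lanosterol demethylase of cholesterol synthesis, 7.41 ± 1.64 CPM per kb. Cyp2d22 came next, and Cyp39a1 and Cyp27a1, hydroxylases of the bile acid pathways, had 5.35 ± 1.32 and 5.20 ± 1.05 CPM per kb. From Cyp20a1 on, the range of each of these members over the sham libraries overlapped that of the next.

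Sham mice differed among themselves in these genes by a median of 2.23-fold between the highest and the lowest library. Of the 33 members 15 varied less than 2-fold and 4 more than 5-fold. The least variable was Cyp4v3, with 1.18-fold between 31.0 and 36.6 CPM. The most variable was Cyp2b10, the classic target of the drug-sensing receptor CAR in liver, with 22.2-fold between 0.480 and 10.7 CPM. Cyp2e1 ranged from 589 to 1454 CPM in sham with a median of 1021 CPM. In nAVF it was at 2711 CPM in #04, 1348 CPM in #06, 504 CPM in #07 and 979 CPM in #11, and in OUT at 1415 CPM in #05 and 2447 CPM in #09. It took 41.5% to 79.5% of the members' counts in a library. Its groups overlapped, and its log2 fold change was 0.61 ± 0.35 (SE) in AVF against sham (adjusted p = 0.25) and 0.43 ± 0.37 in nAVF against sham (adjusted p = 0.54). Adipocytes also express Cyp2e1. The summed level of 4 adipocyte markers was 894 to 1641 CPM in sham. It was 2270 CPM in #04, 1349 CPM in #06, 830 CPM in #07, 894 CPM in #11, and 1269 and 1915 CPM in #05 and #09. In sham, #16 with the lowest Cyp2e1 level had 1404 CPM of these markers, and #17 with the highest had 1056 CPM. The part of adipocytes in the Cyp2e1 level was not tested.

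The AVF against sham comparison asked which members differ between the operated veins. A gene was called with an adjusted p under 0.05 and at least a 2-fold change in edgeR's quasi-likelihood test, fitted over 15912 genes. Of 68 members tested, 21 were called higher and 1 lower, beside 3.37% of all genes called higher and 1.4% called lower. Without the 2-fold limit, 23 members were higher and 3 lower, beside 8.63% and 5.13% of all genes. Of the 21 called higher, 18 were members at least 2-fold higher in both OUT libraries than in each of the other 10, and apart from Ugt1a1 these passed the filter on low counts through those 2 libraries alone, so their calls are no support for a difference. The remaining 3 were Cyp26a1, Cyp4f18 and Cyp11b1, and the 1 called lower was Cyp2u1. Of these, Cyp26a1 also passed that filter through AVF libraries alone, as no sham library reached 1 CPM. The count of 21 became 13 without #05 and 12 without #09, and 6 to 13 without each of the 6 sham libraries. In nAVF against sham, 73 members were tested over 22059 genes and 2 were called higher, Cyp26a1 and Cyp4f18, beside 1.53% of all genes. None was called lower by edgeR, beside 0.467% of all genes, or by DESeq2, and 16 of the 73 members had an unadjusted p under 0.05, beside 22.0% of all genes. Without the 2-fold limit, 3 members were higher and 2 lower, beside 3.23% and 1.13% of all genes. Both comparisons use the same 6 sham libraries.

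Among the 33 sham-expressed members the median log2 fold change was 0.20 in AVF against sham (31 tested) and -0.09 in nAVF against sham, beside -0.01 and -0.04 over all genes tested. Ranges did not overlap between the 6 AVF and the 6 sham libraries for 2 members that were higher, Cyp1b1 and Cyp4f18, beside 4.35% of 16423 genes detected in every sham library. For 2 members that were lower, Cyp2j9 and Cyp4b1, the same held, beside 1.39% of those genes. Between nAVF and sham the same 4 members did not overlap, beside 6.04% of those genes higher and 2.79% lower.

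Retinoic acid is cleared by the Cyp26 enzymes. Cyp26a1, a gene on chromosome 19 (37686241 to 37689984, plus strand, GRCm39) that retinoic acid itself induces, was at most at 0.208 CPM in sham, with 4, 1 and 5 counts in the males #16, #17 and #18 and 0 counts in the 3 females. In AVF it lay between 0.746 and 2.69 CPM with a median of 1.36 CPM and 10 to 56 counts. The nAVF libraries had 0.746 (#04), 2.45 (#06), 1.03 (#07) and 2.69 CPM (#11), and the OUT libraries 1.17 (#05) and 1.55 CPM (#09). All 6 AVF libraries were above all 6 sham libraries, and the OUT libraries lay within the range of nAVF. The log2 fold change was 4.28 ± 0.71 in AVF against sham (adjusted p = 0.0028) and 4.38 ± 0.78 in nAVF against sham (adjusted p = 0.0089). The level was low throughout, at no more than 56 counts. In both comparisons Cyp26a1 passed the filter on low counts only through AVF libraries, where it is high. Its calls therefore add no support beyond the values by library. Cyp26b1, its paralog in many peripheral tissues, pointed the other way without passing the test. It ranged from 4.94 to 31.7 CPM in sham with a median of 10.1 CPM and from 2.31 to 10.3 CPM in AVF with a median of 4.73 CPM, and the groups overlapped. Its log2 fold change was -1.60 ± 0.52 in AVF (adjusted p = 0.059) and -1.58 ± 0.61 in nAVF (adjusted p = 0.16). In AVF it passed with edgeR's exact test (adjusted p = 0.0090), with DESeq2 (adjusted p = 0.0094) and without #11 (adjusted p = 0.039). Cyp26c1 had 0 counts in all 12 libraries.

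The 80 bases before the start of the canonical transcript are shown for some members, read from GRCm39 on the strand of the gene. Cyp26a1 is shown because its promoter holds a retinoic acid response element next to the start, and Cyp1b1 and Cyp2u1 because theirs hold the core of the site bound by the aryl hydrocarbon receptor. Cyp4f18 is shown as the sham-expressed member called in both comparisons. The others were picked by motif, so they do not represent the members that changed. Cyp11b1, called in AVF against sham, held none of the motifs and is not shown. Cyp2j9 and Cyp20a1 held the receptor core within 250 bases and are not shown. Capitals mark the motif found.
Cyp26a1 (chr19:37686161-37686240, plus strand): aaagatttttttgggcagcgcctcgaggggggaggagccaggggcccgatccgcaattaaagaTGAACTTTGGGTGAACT
Cyp1b1 (chr17:80022533-80022612, minus strand): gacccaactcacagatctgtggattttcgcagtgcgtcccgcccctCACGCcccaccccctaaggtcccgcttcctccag
Cyp2u1 (chr3:131096877-131096956, minus strand): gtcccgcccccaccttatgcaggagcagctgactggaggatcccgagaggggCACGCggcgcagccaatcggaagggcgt
Cyp4f18 (chr8:72763479-72763558, minus strand): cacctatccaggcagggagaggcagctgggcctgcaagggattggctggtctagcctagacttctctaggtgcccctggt
The stretch of Cyp2u1 ends 3 bases before the start, and the other 3 end at it. A further receptor core of Cyp2u1 begins at position -7 from the start and runs past the end of the stretch, so it is not in capitals. The element of Cyp26a1 was searched as AGTTCA followed after 5 bases by AGTTCA on either strand, a search that was added after the values of Cyp26a1 had been seen. In the 250 bases before the start it occurred in 1 of 21614 promoters of protein-coding genes (0.00463%), which was that of Cyp26a1. Only this exact spelling was searched, with Cyp26a1 in view, so the count is a description and no test. It does not show how many promoters hold other forms of the element. The receptor core, GCGTG on either strand, occurred in 31.2% of all promoters, in 13 of 33 sham-expressed members (39.4%) and in 1 of 30 members detected in OUT alone (3.33%). Cyp1a1 held it at 4 positions. A direct repeat of AGGTCA with 1 base between, as HNF4 binds, occurred in 8 of all promoters, and GTTAAT followed after 1 base by ATTAAC, as HNF1 binds, in 1, and neither occurred in a member. A motif is a description of the sequence and no measure of binding.

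Among genes of fatty acid and eicosanoid metabolism (the Cyp4a, Cyp4f and Cyp2j genes, 25 members), 10 were tested in AVF against sham, of which 2 were called higher, beside 3.37% of all genes, and 1 was lower with an adjusted p under 0.05, beside 5.13%. Cyp4f18 (chromosome 8, 72742313 to 72763478), which inactivates leukotriene B4 in neutrophils and macrophages, had 1.12 to 1.60 CPM in sham with a median of 1.40 CPM. AVF libraries had 2.64 to 4.44 CPM with a median of 2.94 CPM, so that all lay above sham, and #05 and #09 with 2.88 and 2.99 CPM lay among the nAVF values of 2.64, 4.44, 2.68 and 3.27 CPM. The log2 fold change was 1.16 ± 0.18 in AVF (adjusted p = 0.0021) and 1.20 ± 0.24 in nAVF (adjusted p = 0.015), and 1.01 with an adjusted p of 0.063 in nAVF without #06. A summed level of 4 macrophage markers was 128 to 215 CPM in sham, 229 to 409 CPM in nAVF and 243 to 290 CPM in OUT, and its part in the result was not tested.

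Cyp2j9, an epoxygenase of arachidonic acid, fell. It had 15.7 to 28.3 CPM in sham with a median of 18.7 CPM, and 9.87 to 14.3 CPM in AVF with a median of 12.7 CPM, without overlap. Its log2 fold change was -0.76 ± 0.17 in AVF (adjusted p = 0.013) and -0.79 ± 0.19 in nAVF (adjusted p = 0.035), short of 2-fold, and in nAVF the adjusted p was 0.058 to 0.091 without #04, #06, #07, #11, #17 or #23. Cyp2j6, the more abundant paralog, had 36.1 to 59.3 CPM in sham and 32.1 to 42.4 CPM in AVF and did not pass (adjusted p = 0.16). Cyp4f14, the other member of the group called higher in AVF, was at 5.87 CPM in #05 and 15.4 CPM in #09 and at no more than 0.913 CPM elsewhere. Cyp4b1, which hydroxylates fatty acids and is not in this group by symbol, fell as well. Sham libraries held 22.9 to 37.1 CPM with a median of 25.4 CPM and AVF libraries 11.8 to 22.0 CPM with a median of 16.8 CPM, and they did not overlap. The log2 fold change was -0.67 ± 0.16 in AVF (adjusted p = 0.018) and -0.82 ± 0.18 in nAVF (adjusted p = 0.023), the latter with adjusted p values of 0.069 without #06 and 0.079 without #11. The nAVF values of 11.8 to 19.9 CPM and the OUT values of 18.1 and 22.0 CPM overlapped.

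Cyp2u1, which hydroxylates long-chain fatty acids, was the 1 member called lower. It ranged from 5.41 to 12.1 CPM in sham with a median of 8.33 CPM and from 2.45 to 7.00 CPM in AVF with a median of 3.77 CPM, and the highest AVF library, #07, lay within sham. Its log2 fold change was -1.01 ± 0.29 in AVF (adjusted p = 0.037) and -0.97 ± 0.33 in nAVF (adjusted p = 0.12). The call was lost without #05, #06, #09, #11, #16, #19, #22 or #23, with adjusted p values of 0.053 to 0.079.

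**Figure D2:**
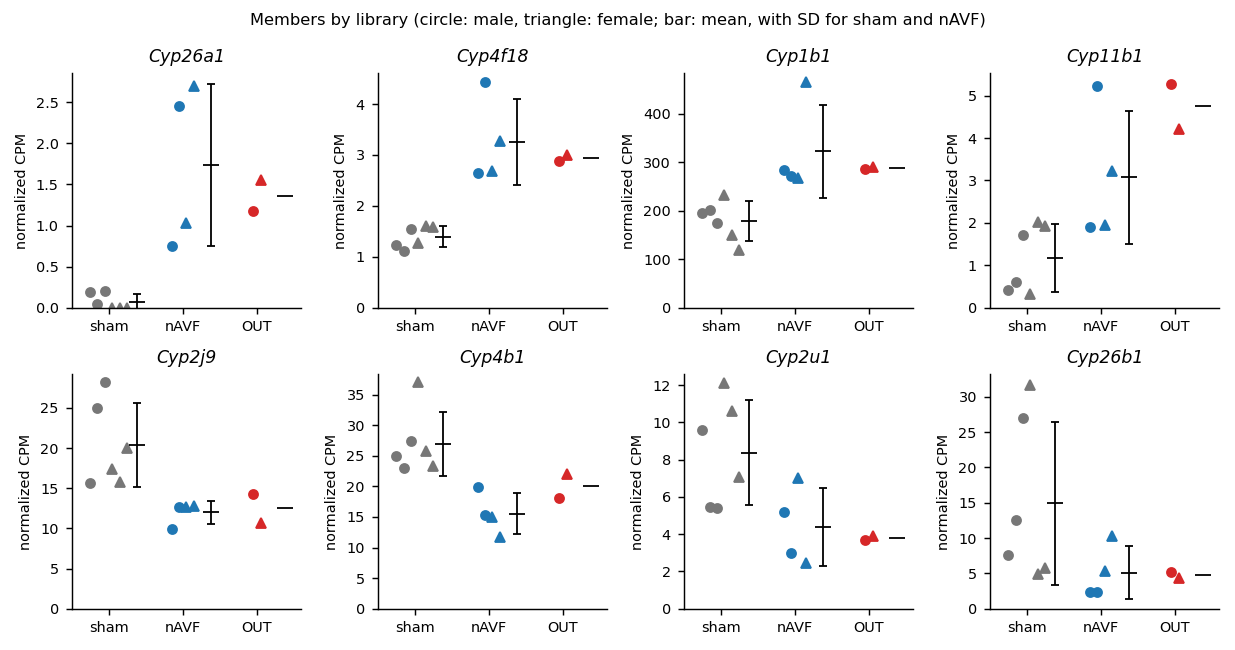
Normalized CPM (vertical axes, from 0) of 8 members in each sham, nAVF and OUT library, with circles for male and triangles for female mice and a bar for the mean, with SD for sham and nAVF. Cyp26a1, Cyp4f18 and Cyp1b1 lie above sham in every AVF library, and Cyp2j9 and Cyp4b1 lie below it.

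Targets of the aryl hydrocarbon receptor are Cyp1a1, Cyp1a2 and Cyp1b1. Cyp1b1 (chromosome 17, 80008966 to 80022532) had 118 to 234 CPM in sham with a median of 185 CPM and 268 to 467 CPM in AVF with a median of 286 CPM, and the groups did not overlap. Of the AVF libraries, 5 stood between 268 and 290 CPM and #11 at 467 CPM. The log2 fold change was 0.78 ± 0.17 in AVF (adjusted p = 0.013) and 0.82 ± 0.20 in nAVF (adjusted p = 0.036), short of 2-fold. In nAVF it was 0.60 without #11, with an adjusted p of 0.12, and the adjusted p was 0.052 to 0.078 without #06, #16, #18, #22 or #23. Cyp1a1 did not follow Cyp1b1. It had 0.583 to 2.72 CPM in sham and 0.139 to 1.24 CPM in AVF, and its log2 fold change of -1.53 ± 0.55 did not pass in AVF (adjusted p = 0.081), nor did that of -1.46 ± 0.65 in nAVF (adjusted p = 0.21). Cyp1a2, the liver enzyme of this family, had 16.1 CPM in #05, 27.1 CPM in #09 and 0 counts in the other 10 libraries. Of the genes encoding the receptor and its partners, Arnt had an adjusted p under 0.05 in AVF (log2 fold change 0.22) and Ahr and the repressor Ahrr did not (-0.19 and -0.64).

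Steroid hormone genes were scarce in the vein. Cyp11b1 (chromosome 15, 74699444 to 74713748), which completes corticosterone synthesis in the adrenal cortex, was detected in all libraries with 0.317 to 2.03 CPM in sham and a median of 1.16 CPM, and with 1.89 to 5.28 CPM in AVF and a median of 3.72 CPM. The lowest AVF libraries, #04 and #07, overlapped sham. Its log2 fold change was 1.61 ± 0.48 in AVF (adjusted p = 0.042) and 1.36 ± 0.52 in nAVF (adjusted p = 0.16). The call was lost without #05, #06, #09, #11, #16, #17 or #19, with adjusted p values of 0.058 to 0.086. Cyp21a1 and Cyp11b2, which act before and after it in the adrenal cortex, and Cyp19a1, the aromatase of estrogen synthesis, stayed under 3 counts in every library. Cyp11a1, the first enzyme of the pathway, had 0.239 to 0.720 CPM in sham and 0.0574 to 0.721 CPM in AVF. Cyp17a1 stood at 11.6 CPM in #09 and at no more than 0.244 CPM elsewhere. Of 6 adrenal markers, Hsd3b1 had 0 counts in every library, Nr5a1 and Akr1b7 reached at most 0.0467 and 0.327 CPM, Star, the cholesterol carrier of steroid-making cells, ranged from 1.43 to 4.69 CPM and Mc2r, the corticotropin receptor, from 0.421 to 3.60 CPM over the 12 libraries. Star was highest in the AVF libraries #05, #04 and #09. The sum of the 6, most of it from Scarb1, was 39.8 to 49.5 CPM in sham and 45.7 to 76.2 CPM in AVF, and its part in the Cyp11b1 result was not tested.

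Sterol and vitamin D members did not pass in either comparison, apart from Cyp7a1 in AVF. Cyp51 had 31.1 to 59.8 CPM in sham and 34.1 to 78.4 CPM in AVF (log2 fold change 0.15, adjusted p = 0.64). Of the 15 other genes of cholesterol synthesis and uptake, Hmgcs1 and Fdft1 fell in AVF without reaching 2-fold (log2 fold changes -0.41 and -0.76, adjusted p = 0.037 and 0.014). Over all genes, 5.13% were lower with an adjusted p under 0.05. None of the 15 rose, and none passed in nAVF. Cyp27a1, Cyp39a1 and Cyp7b1, which hydroxylate sterols outside as well as inside the liver, overlapped between AVF and sham, with adjusted p values of 0.78, 0.51 and 0.69. Cyp7a1, the rate-limiting enzyme of bile acid synthesis, had 266 counts in #05, 448 counts in #09 and at most 1 count in each of the other 10, and Cyp8b1 of the same pathway had 3.47 and 12.5 CPM and at most 0.288 CPM elsewhere. The vitamin D 25-hydroxylase Cyp2r1 had 1.16 to 2.34 CPM in sham and 1.11 to 3.49 CPM in AVF (adjusted p = 0.48), Cyp27b1 reached 3 counts in scattered libraries, and Cyp24a1 had 0 counts in all 12. Cyp20a1 had an adjusted p of 0.049 in AVF at a log2 fold change of 0.30 ± 0.09, with overlapping groups (35.8 to 49.4 CPM against 30.6 to 39.4 CPM), and lost it without 9 of the 12 libraries (#04, #05, #06, #11, #16, #18, #19, #22 or #23, adjusted p values of 0.068 to 0.096).

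**Figure D3:**
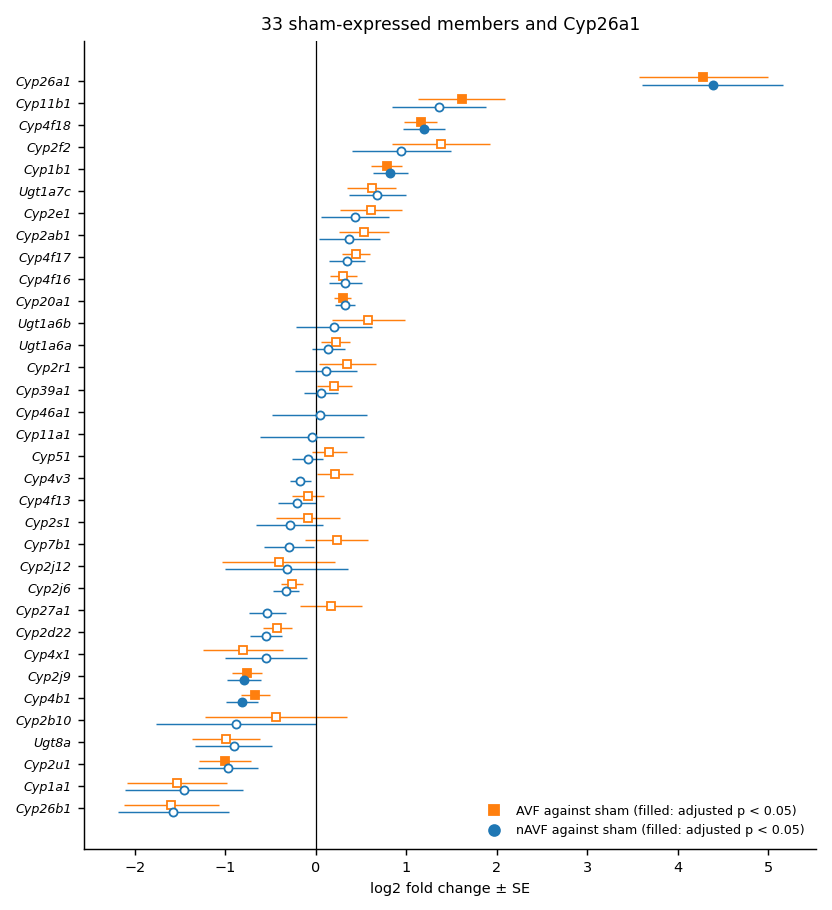
log2 fold change ± SE (horizontal axis) of the 33 sham-expressed members and Cyp26a1 in nAVF against sham (circles) and, for all but Cyp46a1 and Cyp11a1, which were not tested there, in AVF against sham (squares), filled where the adjusted p was under 0.05. Cyp26a1 stands apart at 4.28 and 4.38, and the sham-expressed members lie nearer to 0 in both comparisons, which share their sham libraries.

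In the OUT libraries 44 of the 123 members (35.8%, 32 Cyp and 12 Ugt) were at least 2-fold above the highest of the other 10 libraries in both #05 and #09, beside 1.34% of the 30404 genes with a count. None was 2-fold below the lowest of the others. The study formed OUT from the expression in these libraries, so this is a description without a test. The 44 comprised all 30 members detected in OUT alone and 14 of the 17 also seen in some other libraries, and none of the 33 sham-expressed members. The members nearest to the margin were Cyp4a10 inside it, with its lower OUT value 2.30 times the highest other library, and Cyp4v3 and Cyp27a1 outside it with 1.31 and 1.29 times. Of the 44, 29 were tested in nAVF against sham and none was called, with 1 at an unadjusted p under 0.05, and DESeq2 called none. The 44 were chosen as lower in the other 10 libraries, which this comparison uses. The absence of calls therefore does not show that nAVF and sham are alike in them.

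By role, the raised members were 24 of the 45 xenobiotic P450 genes, 6 of 7 Ugt2b, both Ugt3a, 5 of 25 fatty acid and eicosanoid members, 3 of 9 Ugt1a, 2 of 7 sterol and bile acid members, 1 of 3 Ugt2a and 1 of 3 receptor targets, and no steroid hormone, vitamin D or retinoic acid member. The highest member detected in OUT alone was Cyp3a11, the main drug-oxidizing Cyp3a of mouse liver, with 138 CPM in #05 and 313 CPM in #09 and at most 2 counts in each of the other 10. Cyp2c70, which makes muricholic acid, followed with 33.2 and 133 CPM. Cyp2c50, Ugt2b5, Cyp2j5 and Cyp2a5 had 31.9 and 96.4, 36.5 and 80.2, 23.1 and 63.3, and 24.1 and 56.9 CPM. In each of the other 10 libraries these last 4 had 0 counts. The mean over OUT of Cyp2c50 was at least 460-fold higher than 3 counts in a sham library, that of Ugt2b5 at least 418-fold, and those of Cyp2j5 and Cyp2a5 at least 310-fold and 290-fold. Ugt2b34, Cyp3a25 and Ugt2b1 had 26.9 and 94.6, 19.4 and 83.5, and 35.6 and 52.7 CPM. The others of the 15 highest were Cyp2c69, Cyp2c40, Cyp2c68, Cyp2c37, Cyp2a12 and Cyp2c54, with 0.733 to 9.83 CPM in #05 and 34.5 to 119 CPM in #09. Among members with some counts elsewhere, Cyp2c29 was at 83.1 and 171 CPM in OUT and at 0.515 CPM in #07, with 0 counts in the other 9, and Ugt1a1, the bilirubin-conjugating enzyme, was at 30.6 and 81.2 CPM and at most at 1.16 CPM elsewhere.

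In AVF against sham, which includes both OUT libraries, the raised members called were Ugt3a1, Ugt2b1, Cyp3a11, Cyp3a25, Cyp4f14, Cyp7a1, Cyp2c70, Cyp2c54, Cyp2c67, Ugt2b34, Cyp2a12, Ugt2b36, Cyp2c40, Cyp2d10, Ugt1a5, Cyp2d26, Ugt1a1 and Cyp3a13. Their fitted log2 fold changes, 4.61 (Cyp3a13) to 11.0 (Cyp3a11), are a description and rest on 2 of 6 AVF libraries and on sham libraries at or near 0.

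Many of these genes lie in tandem arrays of close paralogs. Of the 15 Cyp2c genes on chromosome 19, between 38995462 and 44017653, 13 were raised in both OUT libraries, and none was sham-expressed. Of the 7 Ugt2b genes on chromosome 5 between 87037626 and 87572062, 6 were raised, and of the 9 Cyp2d genes on chromosome 15, 5 were raised and 1, Cyp2d22, was sham-expressed. The Ugt1a locus on chromosome 1 between 87983110 and 88147724, in which alternative first exons join shared later exons, held 3 raised members (Ugt1a1, Ugt1a5 and Ugt1a9) and 3 sham-expressed ones (Ugt1a6a, Ugt1a6b and Ugt1a7c). Reads from such copies were divided among genes by the counting. Of the members with any count, 47.2% and 45.3% had counts that were not whole in #05 and #09, against 10.9% to 19.2% in the other libraries. The level of single paralogs is therefore less certain than the level of a cluster.

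Female against male mice showed no called member. In sham, 68 members were tested and 10 had an unadjusted p under 0.05, beside 9.23% of all genes, and neither edgeR nor DESeq2 called any, beside 0.0318% of all genes called higher and 0.05% called lower. The smallest adjusted p values were 0.34 for Ugt1a7c (log2 fold change -0.76) and 0.36 for Ugt8a (-0.98), a galactosyltransferase of myelin lipids. In AVF, 96 members were tested, 10 had an unadjusted p under 0.05, beside 3.30% of all genes, and neither tool called any, beside 0.00452% and 0.0271% called by edgeR. Of these 10, 6 were members detected in 1 OUT library alone, so they rest on 1 mouse. Another 1 was detected in both OUT libraries alone and 1 in both OUT and some others. The count of 10 is therefore no support for a difference between the sexes. With same-numbered male and female AVF libraries as pairs, 3 members were called higher in females, Cyp3a41a (log2 fold change 10.5, adjusted p = 0.0014), Cyp2c69 (7.25, adjusted p = 0.027) and Cyp2a4 (9.56, adjusted p = 0.042), among 14 of 22123 genes called in either direction. In these pairs #09 stood against #05, so the values rest on the OUT pair. Without both OUT libraries 1 member was called lower in females, Cyp2f2 (log2 fold change -2.71, adjusted p = 0.017), among 10 of 21851 genes called. It had 50.0 and 30.1 CPM in the males #04 and #06 and 5.46 and 6.63 CPM in the females #07 and #11. The OUT libraries went the other way, with 33.7 CPM in the male #05 and 62.6 CPM in the female #09. With all AVF libraries its log2 fold change was -0.61 (adjusted p = 0.997). The interaction of operation and sex had no call among the 97 members tested or among all 22163 genes by edgeR, none of the members was called by DESeq2, and 2 members, Cyp26a1 and Cyp2d22, had an unadjusted p under 0.05, beside 4.82% of all genes. The interaction of Cyp26a1 was 4.92 ± 1.37 on the log2 scale (adjusted p = 0.96).

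Between the OUT libraries, many raised members stood near a common ratio. The female library #09 was above the male library #05 in 40 of the 42 raised members with more than 3 counts in both. For the 39 of them outside the lists of liver sex bias, the median of #09 over #05 was 3.02, with quartiles of 2.40 and 4.09, and for 12 hepatocyte markers it was 3.04, between 1.70 and 4.79. The Ugt genes had a median of 2.72 and the Cyp genes of 3.64.

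Genes listed as differing between the sexes in mouse liver left this ratio, as did some members outside the lists. Of the female-biased liver genes, 9 members were listed, and their sum was 654 CPM in #09 and 3.86 CPM in #05. Cyp3a41a was at 313 CPM (5639 counts) in #09 and 0.196 CPM (4 counts) in #05, Cyp2c69 at 119 and 0.733 CPM, and Cyp2a4 at 55.0 and 0.0489 CPM. Cyp2b9, Cyp3a41b, Cyp3a44, Cyp3a16 and Cyp2b13 had 20.5, 28.1, 24.7, 11.2 and 2.11 CPM in #09 and 0 counts in #05, at least 140-fold, 191-fold, 168-fold, 76.4-fold and 14.4-fold higher than 3 counts in #05. Cyp3a41a and Cyp3a41b are near-identical copies whose shares are uncertain. Of the 5 male-biased liver genes listed, Cyp4a12a and Cyp4a12b had 102 and 36 counts in #05 and 0 counts in #09, and Cyp2d9 had 20.7 and 0.998 CPM, 20.8 times as much in #05. Cyp7b1, also sham-expressed, was at 14.6 CPM in #05 and 6.49 CPM in #09, and Cyp2u1 did not differ in this way, at 3.67 and 3.88 CPM. In the other 10 libraries no female-biased gene exceeded 0.309 CPM, and those of the male-biased genes that are not sham-expressed had 0 counts. With 1 mouse of each sex in OUT, sex and mouse cannot be told apart.

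**Figure D4:**
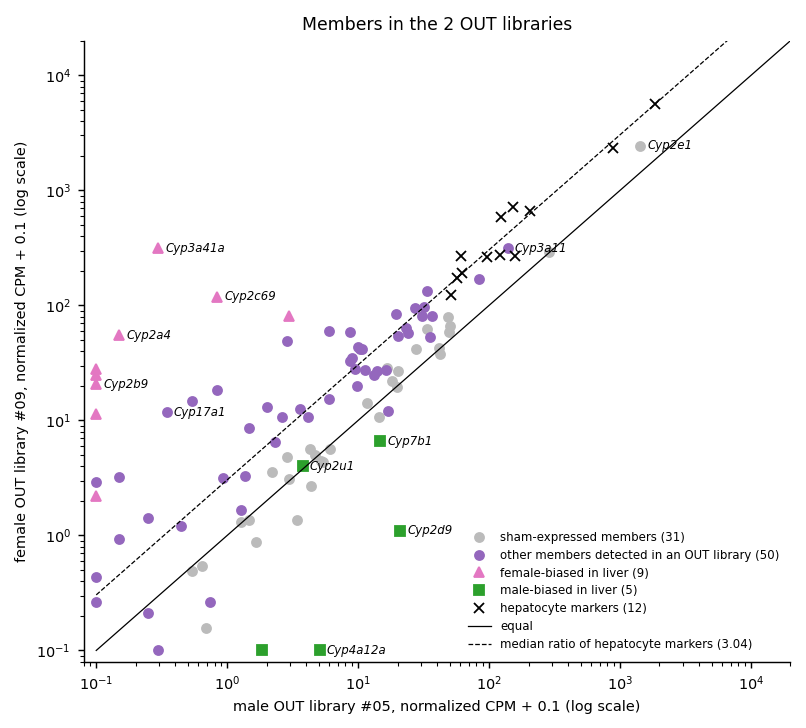
Level of the members in the male OUT library #05 (horizontal) and the female OUT library #09 (vertical), both in normalized CPM + 0.1 on log axes, with 12 hepatocyte markers as crosses. The dashed line is the median ratio of the hepatocyte markers (3.04), and the female-biased and male-biased liver genes lie far above and below it, apart from Cyp2u1 and Cyp7b1 which lie nearer to the sham-expressed members.

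The genes that serve these enzymes changed little in the comparison of AVF and sham. Over all genes, 8.63% were higher and 5.13% lower in AVF with an adjusted p under 0.05. None of the 6 electron donors passed, and Por, the reductase of microsomal P450, had 73.0 to 105 CPM in sham and 45.0 to 124 CPM in nAVF. Of 3 genes of UDP-glucuronate supply, Ugdh, which makes it, rose in AVF (log2 fold change 0.69, adjusted p = 0.028) and did not pass in nAVF (0.58, adjusted p = 0.13). Prostacyclin synthase, the vascular P450 Ptgis, rose in AVF short of 2-fold (0.76, adjusted p = 0.015), and Tbxas1, thromboxane synthase, did not pass (0.53, adjusted p = 0.17).

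Of 11 regulators of Cyp and Ugt genes, 9 were tested in AVF against sham. Of these, 3 had a higher and 1 a lower level with an adjusted p under 0.05, beside 8.63% and 5.13% of all genes. Ppara, which controls fatty acid oxidation, was called lower in AVF (log2 fold change -1.45, adjusted p = 0.029) and nAVF (-1.84, adjusted p = 0.030), at 8.13 to 37.4 CPM in sham and 2.93 to 10.5 CPM in nAVF. Brown adipocytes also express Ppara, and 4 of their markers summed to 92.1 to 1676 CPM in sham and 43.8 to 262 CPM in nAVF, and their part in that value was not tested. Hnf4a, a central regulator of hepatocyte genes, was 1 of the 3 higher. It had 27.8 CPM in #05 and 102 CPM in #09 and at most 0.0467 CPM elsewhere. It passed the filter on low counts through those 2 libraries alone, so its test is no support for a difference.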

How the data were processed

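Poly-A RNA of the IVC was sequenced from stranded libraries. Per the submitters' processing notes the authors used Trimmomatic 0.39, STAR 2.7.7a and RSEM 1.3.3 with GRCm39, and the deposited values are expected counts for every gene, counted by strand (reverse setting in the study's code), neither normalized nor filtered. Names, exon lengths and starts came from GENCODE M39 on GRCm39. Samples were grouped by the labels and, for nAVF and OUT, by the study's text.

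Counts were rounded, normalized by TMM and tested with edgeR 4.0.16 (quasi-likelihood, R 4.3.3), with Benjamini-Hochberg adjustment over all tested genes. Genes needed more than 1 CPM in 2 libraries (AVF against sham) or more than 12 counts in all (others). Calls between sexes required an absolute log2 fold change of 0.585. DESeq2 1.42.0, RLE, other filters, a replicate block and leaving out each library were alternatives. The scripts were tested on simulated data. Same-numbered male and female AVF libraries correlated in their deviations (r = 0.243, 0.696 and 0.488), over the limit of 0.1 set for pairing. Libraries of other numbers gave -0.618 to 0.420, positive within nAVF and negative between nAVF and OUT, so the values follow that division too. p-values measure the spread between mice.

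Members, gene lists and tests were chosen with earlier results of these data known. Named were the members called, the 10 highest per length in sham, the 15 highest of those detected in OUT alone, and the role lists.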

Additional observations from a re-analysis of the deposited data

Results flagged for a closer look

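In groups of 4 or 6 libraries, single libraries standing apart from the rest were sought on log2(normalized CPM + 1) in 110 groups of 56 members. The gap exceeded Dixon's 95% critical value in 14. Chance gives about 1 in 20 independent groups, but the 14 cannot be set against that rate. The nAVF libraries are also AVF libraries, so Cyp1b1 and Cyp27b1 were flagged in both groups through the same library. Cyp2c40 and Cyp2c69 had been named for their high level in OUT. Ugt1a5 in nAVF and sham and Ugt2b36 in sham stood at no more than 0.317 CPM against 0 counts. In AVF, #09 stood above the other 5 libraries for Cyp17a1 (11.6 CPM against at most 0.244 CPM), Cyp2c40 (80.1 CPM against at most 2.88 CPM), Cyp2c69 (119 CPM against at most 0.733 CPM) and Ugt1a5 (48.7 CPM against at most 2.79 CPM). Library #11 stood above the rest for Cyp1b1, with 467 CPM, both in AVF (268 to 290 CPM in the others) and in nAVF (268 to 285 CPM). It did so for Cyp27b1 with 0.336 CPM in AVF and nAVF and for Ugt1a5 with 0.288 CPM in nAVF. In nAVF #04 was lowest for Cyp2j9, at 9.87 CPM against 12.7 to 12.8 CPM. In sham #19 was highest for Cyp4b1 (37.1 CPM against 22.9 to 27.5 CPM) and for Ugt1a5 (0.317 CPM against 0 counts), #23 for Cyp2d26 (0.192 CPM) and #16 for Ugt2b36 (0.239 CPM). No member was called in the interaction test of operation and sex, which does not show that the effects were alike.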

How the results depend on the processing

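Of 580 log2 fold changes of members recomputed under an alternative (AVF or nAVF against sham), 438 kept their direction and side of the threshold, 139 kept the direction but lost an adjusted p under 0.05, 3 gained it, all for Cyp26b1, and none reversed. Cyp4f18, Cyp26a1, Cyp1b1, Cyp2j9 and Cyp4b1 kept an adjusted p under 0.05 in AVF against sham under all 18 alternatives. In AVF against sham, the 21 members called higher became 39 with edgeR's exact test and 32 with DESeq2, while calls over all genes went from 759 to 1056 and 1065. The 1 called lower became 2 and 3, sham-expressed members alike. Without 1 library in turn the counts were 6 to 24 higher and 0 to 3 lower, and among sham-expressed members 1 to 3 (2 in all libraries) and 0 to 3. With a filter of more than 12 counts or none, 1 sham-expressed member was called higher. In nAVF against sham 2 members were called higher, and leaving out 1 library gave 1 to 2, or 0 to 1 among sham-expressed members. With the labels' numbers as a replicate block, which did not pair AVF or nAVF with sham (correlations of -0.133 to 0.254), 2 were called lower in AVF against sham, 29 higher, and 0 higher and 1 lower in nAVF against sham, where Cyp4f18 and Cyp26a1 had adjusted p values of 0.083 and 0.052. The block gave 3 calls between the sexes in AVF and none in sham or the interaction, and leaving out both OUT libraries gave 1. With detection from 1 count, 18 members were in OUT alone, 33 in both OUT and some others and 12 in scattered libraries. From 10 counts, 8 were in both OUT and some others. Members raised in OUT numbered 50 with any margin, 42 with 4-fold and 44 with RLE. At these depths 3 counts limit statements under about 0.125 to 0.309 CPM, and counts of near-identical genes depend on how reads were divided.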
